A study of Ranunculus trichophyllus with 6 samples.

Results

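This comparison covers the 4 libraries of *Ranunculus trichophyllus* that the labels give as leaf with shoot apical meristem at 11 days, out of 6 libraries in the series: aquatic replicates 2 and 3 against terrestrial replicates 2 and 3. The members were chosen by those labels alone, and the 2 libraries of leaf at 14 days were left out. Aquatic plants were seedlings soaked in water from the age of 1 week, and terrestrial plants were seedlings of the same age kept in air. Plants of both groups were grown from seed of a natural population, on agar medium before transfer and in long days throughout, and carry no transgene, mutation or added hormone. RNA came from leafy shoots with the apex, without cotyledon and hypocotyl, in the labels and in the study's description of the sequencing, while its methods name whole plant tissues. The methods also name a longer stay in each condition than the labelled age allows, and neither the number of plants per library nor the hour of harvest is given in the sources used here. The study speaks of independent experiments, but the sources used here do not say how far the libraries of 1 harvest shared plants or cultures, so the p-values measure the spread between these samples.

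*R. trichophyllus* is an amphibious buttercup that makes different leaves in air and in water, a habit called heterophylly. In flowering plants the stomatal lineage is driven in turn by the bHLH factors SPCH, MUTE and FAMA and spaced by receptors such as TMM. A cuticle of cutin and wax seals the epidermis against water loss. Vessels form when NAC factors of the VND group switch on cellulose synthases, laccases and peptidases of the secondary wall. Ethylene accumulates in submerged tissue because it leaves slowly through water, and abscisic acid (ABA) is the hormone of water deficit. The comparison asks which genes for these structures and hormones differ in transcript level between plants grown in water and in air at the same harvest.

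The total count was 26864711 and 30523642 fragments in aquatic replicates 2 and 3, against 25345718 and 25716924 in terrestrial replicates 2 and 3. Of 210686 assembled transcripts, 17559 have a best protein match in *Arabidopsis thaliana*, and their counts were summed over 8613 *Arabidopsis* loci, here called homologs and named by the *Arabidopsis* symbol. A homolog can therefore hold several *Ranunculus* genes, and the median identity of the matches was 58%. Transcripts of 1 assembled gene can also be split over several homologs, as for LHY and CCA1, so list members are not always separate genes. Levels are given as CPM, counts scaled by TMM to a common total of the tested homologs, where 1 count was worth 0.0628 to 0.0700 CPM. Log2 fold changes are aquatic over terrestrial. Transcripts with a fungal match, which were dropped, held 0.586% of the counts in aquatic replicate 2 and 0.146% in aquatic replicate 3, against 0.138 and 0.151% in terrestrial replicates 2 and 3. In aquatic replicate 2, 1643 such transcripts were counted, against 60 to 161 in the other 3 libraries. Over homologs, log2 CPM correlated at 0.970 between the aquatic libraries and 0.984 between the terrestrial libraries, against 0.881 to 0.922 between a library of each condition.

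The labelled tissue was checked with marker genes. All 13 matched markers of the shoot apex and cell division were counted in every library, and STM, the homeobox gene that maintains the shoot meristem, had 9.52 and 18.4 CPM in aquatic replicates 2 and 3, against 9.83 and 11.3 CPM in terrestrial replicates 2 and 3. WOX5, the gene of the root stem cell niche, had 0 counts in the aquatic libraries and 2 and 1 counts in the terrestrial libraries. Of the other root markers matched, PYK10 had 0 counts in every library, EXPA7, an expansin of root hairs, had at most 0.981 CPM, and SHR, which patterns the ground tissue of root and leaf, had 30.3 and 32.9 CPM in the aquatic libraries, against 25.6 and 33.3 CPM in the terrestrial libraries. LFY, a gene of flower meristems, had 5 and 7 counts in the aquatic libraries, against 9 and 9 in the terrestrial libraries. The 19 matched genes of photosynthesis summed to 97120 and 106000 CPM in the aquatic libraries, against 106700 and 84130 CPM in the terrestrial libraries. Genes of the apex and of photosynthesis were thus well counted in all 4 libraries.

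Of 8210 homologs tested, 885 were higher in aquatic plants (10.8%) and 733 were lower (8.93%) at an adjusted p under 0.05 from edgeR's quasi-likelihood test, so that 54.7% of the calls were increases. Counts of list members below should be read beside these percentages. The lists were chosen with earlier results of these data known, so a difference from them is not an independent test. Changes over 2-fold were found for 572 of those that rose and 410 of those that fell, and changes over 8-fold for 125 and 65. The median log2 fold change over all homologs tested was -0.0018. With library size in place of TMM, that median moved to -0.10 and the split to 779 higher and 986 lower, or 44.1% increases, and limma, run on log2 FPKM after quantile normalization, gave 713 and 948, or 42.9%. The balance of increases and decreases therefore depends on the scaling. The number of calls also depends on the terrestrial libraries. When terrestrial replicate 2 was left out 236 homologs were higher and 152 lower, and when terrestrial replicate 3 was left out 95 and 62, of which 364 and 153 were among the 1618. Without aquatic replicate 2 the counts were 982 and 869, and without aquatic replicate 3 they were 1022 and 655. In each of these 4 fits the remaining library of the reduced condition is assumed to vary like the pair of the other, and all 1617 calls that could be tested kept their direction.

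At the level at which the counts were deposited, 4026 of 58066 transcripts were higher in aquatic plants (6.93%) and 2696 were lower (4.64%). Among the transcripts that rose 1431 had an *Arabidopsis* match, and among those that fell 1132. Of 525 homologs with several called transcripts, 451 had all of them in 1 direction and 74 had some in each. Of those 74, the summed homolog did not pass for 41. Called transcripts are therefore given beside some of the homologs whose sum hides a difference between them, but not beside all.

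**Figure D1:**
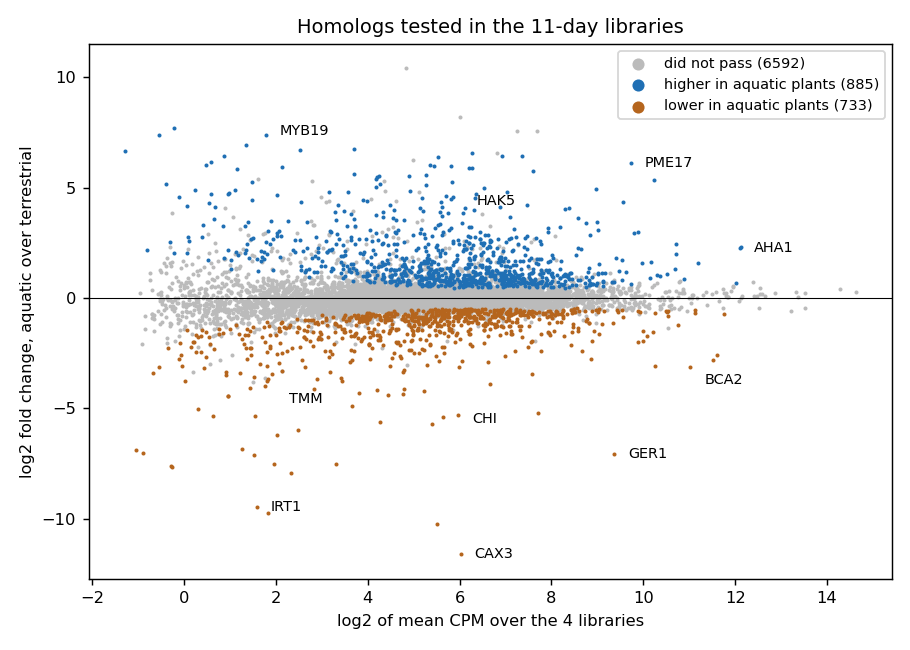
Log2 fold change, aquatic over terrestrial, against the log2 of the mean CPM over the 4 libraries, for each of 8210 homologs. Blue points are the 885 that were higher and brown points the 733 that were lower in aquatic plants (adjusted p under 0.05). CAX3 and GER1 are among the 15 largest decreases described below, and PME17 and AHA1 are among the abundant homologs that rose.

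Among the 15 largest increases in aquatic plants were the MYB factor MYB19, the reductase KCR2, the membrane protein MLO12 and the wall enzymes PME17 and KOR2. MYB19, a MYB transcription factor, had 106 and 101 counts in aquatic replicates 2 and 3, against 1 and 0 in terrestrial replicates 2 and 3, a ratio of 204 with a 95% counting interval of 36.2 to 8090 (adjusted p = 0.00788 from edgeR). KCR2, a beta-ketoacyl reductase, had 216 and 124 counts in the aquatic libraries, against 1 and 2 in the terrestrial libraries, a ratio of 112 with a 95% counting interval of 37.9 to 544 (adjusted p = 0.00838). Intervals of this kind cover counting error only. Both aquatic libraries lay far above both terrestrial libraries in each of these genes. MLO12, of the MLO membrane proteins known as susceptibility factors for powdery mildew, had 251.9 and 225 CPM in the aquatic libraries, against 3.95 and 1.57 CPM in the terrestrial libraries, and rose by 6.44 in log2 units (standard error 0.45, adjusted p = 0.00701). Its 3 transcripts all rose.

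PME17, a pectin methylesterase, had 2375 and 992 CPM in the aquatic libraries, against 35.6 and 13.2 CPM in the terrestrial libraries, and rose by 6.11 (standard error 0.75, adjusted p = 0.0148 from edgeR). KOR2, an endoglucanase of the KORRIGAN family, had 141 and 150.2 CPM in the aquatic libraries, against 3.6 and 1.31 CPM in the terrestrial libraries, and rose by 5.90 (standard error 0.46, adjusted p = 0.00788). PGSIP5, a glycogenin-like glycosyltransferase, had 119 and 102 CPM in the aquatic libraries, against 3.05 and 0.523 CPM in the terrestrial libraries, and rose by 5.96 (adjusted p = 0.0128). UGT72E1, a glycosyltransferase that acts on lignin precursors in *Arabidopsis*, had 149 and 155 CPM in the aquatic libraries, against 2.77 and 2.42 CPM in the terrestrial libraries, and rose by 5.87 (standard error 0.15, adjusted p = 0.00332). The replicates of UGT72E1 were closer to each other than those of the other genes named here. The other 8 of the 15 largest increases, given by locus as AT5G17540, AT4G04480, AT1G17860, AT1G30700, AT3G13650, AT2G25410, AT5G38940 and AT4G21215, had log2 fold changes of 5.92 to 6.91. The libraries of a condition were least alike in AT4G04480, with 658 and 94 counts in aquatic replicates 2 and 3, against 3 and 4 in terrestrial replicates 2 and 3. AT2G25410 sums 12 transcripts matched at low identity (median 32.5%), all 11 of them that were tested rose, and 5 of those had 0 counts in both terrestrial libraries.

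Of the 15 largest increases, 12 also passed without terrestrial replicate 2 and 9 without terrestrial replicate 3, and all 15 passed without either aquatic library. AT5G17540, AT4G04480 and AT1G30700 were lost without either terrestrial library, and KCR2, AT3G13650 and PME17 without terrestrial replicate 3. Of the 15, 13 were higher in aquatic replicate 2 than in aquatic replicate 3, 5 of them over 2-fold (AT4G04480, AT1G30700, PME17, AT3G13650 and AT5G17540), and so was the fungal share of the counts. Its part in these increases was not tested.

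Among the 15 largest decreases in aquatic plants were the ion transporters CAX3 and IRT1, the auxin enzyme YUC9 and the ABA enzyme CYP707A2. CAX3, a vacuolar exchanger of calcium for protons, had 1 and 0 counts in aquatic replicates 2 and 3, against 1735 and 2148 in terrestrial replicates 2 and 3, a ratio of 3943 with a 95% counting interval of 707 to 155800 (adjusted p = 0.00501 from edgeR). IRT1, the iron transporter of the plasma membrane, had 0 counts in both aquatic libraries, against 125 and 51 in the terrestrial libraries, and with 3 counts over the condition as floor was at least 59.6-fold lower (adjusted p = 0.0231). YUC9, of the YUCCA enzymes that make auxin, had 1 and 0 counts in the aquatic libraries, against 75 and 157 in the terrestrial libraries, a ratio of 236 with a 95% counting interval of 41.9 to 9345 (adjusted p = 0.0118). These genes were close to silent in aquatic shoots at this depth.

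GSTF12, a glutathione S-transferase needed for anthocyanin storage in *Arabidopsis*, had 0 and 1 counts in the aquatic libraries, against 106 and 195 in the terrestrial libraries, a ratio of 306 with a 95% counting interval of 54.5 to 12110 (adjusted p = 0.00851 from edgeR). LEA4-5, a late embryogenesis abundant protein of water deficit, had 0 and 1 counts in the aquatic libraries, against 69 and 72 in the terrestrial libraries, a ratio of 143 with a 95% counting interval of 25.3 to 5695 (adjusted p = 0.00802). GER1, a germin-like protein of the cell wall, had 7.14 and 12.2 CPM in the aquatic libraries, against 1241 and 1373 CPM in the terrestrial libraries, and fell by 7.07 in log2 units (standard error 0.34, adjusted p = 0.00609). Behind these levels stood 102 and 194 counts in the aquatic libraries, against 17920 and 20994 in the terrestrial libraries, and both of its transcripts fell. ABCG22, a transporter of the ABC family, had 0.840 and 0.691 CPM in the aquatic libraries, against 30.1 and 46.0 CPM in the terrestrial libraries, and fell by 5.62 (standard error 0.34, adjusted p = 0.00681).

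CYP71A21, a cytochrome P450, had 2.03 and 2.51 CPM in the aquatic libraries, against 120.7 and 73.4 CPM in the terrestrial libraries, and fell by 5.41 (adjusted p = 0.00701 from edgeR). AT1G70820 had 0 counts in both aquatic libraries, against 102 and 108 in the terrestrial libraries, and with the same floor was at least 71.1-fold lower (adjusted p = 0.00788). AT1G09310, AT5G04010, AT2G04570 and AT2G25890 had 1 to 3 counts over the aquatic libraries, with ratios of 1368, 197, 171 and 81.6. AT3G15570 had 18 and 29 counts in the aquatic libraries, against 1281 and 1176 in the terrestrial libraries, and fell by 5.73 (adjusted p = 0.00501). CYP707A2, the remaining member of the 15, is described with ABA. All 15 decreases passed without either aquatic library and 13 without terrestrial replicate 2, where IRT1 and AT2G25890 were lost. Without terrestrial replicate 3 AT1G70820, YUC9, AT2G04570 and LEA4-5 were lost as well.

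**Figure D2:**
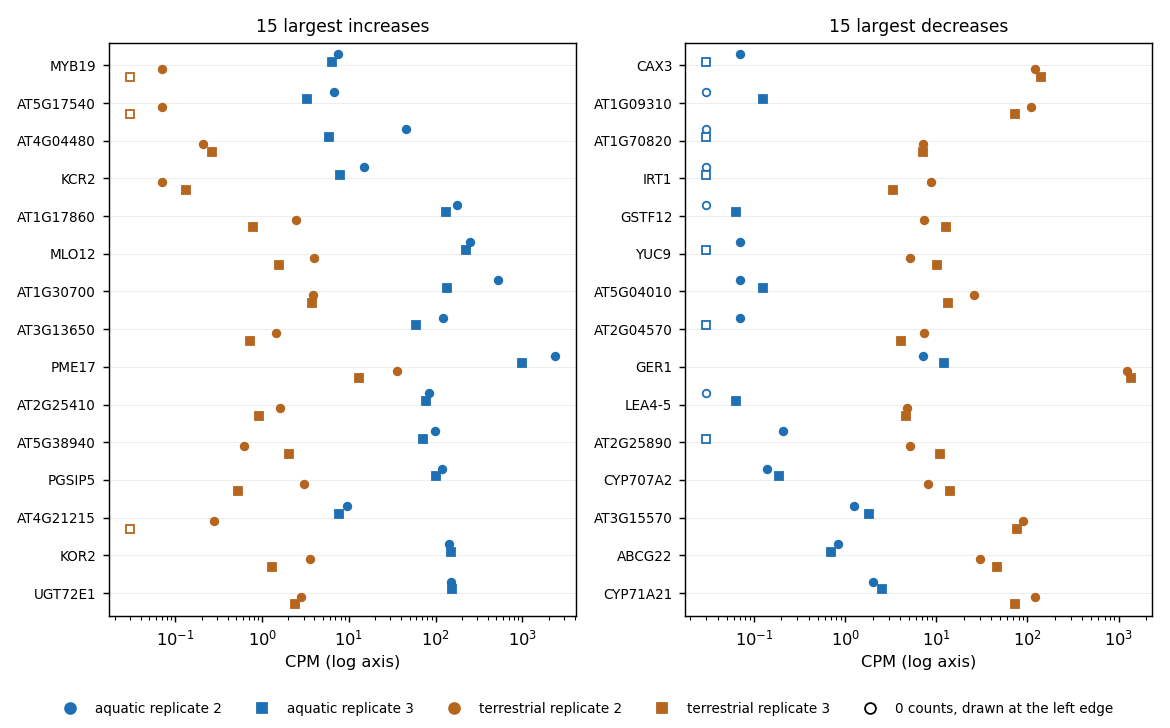
CPM of the 15 homologs with the largest increases (left) and the 15 with the largest decreases (right) in each library, on a log axis. Blue symbols are the aquatic and brown symbols the terrestrial libraries, and open symbols at the left edge stand for 0 counts, as for both aquatic libraries in IRT1. The conditions do not overlap in any of the 30, which were picked as the largest called changes. Nor do they in 69.7% of all homologs tested.

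Of 10 genes of the stomatal lineage tested (21 in the list), 5 fell in aquatic plants, 1 rose and 4 did not pass, and the median log2 fold change over those tested was -0.60. FAMA was among the list genes without a match, and so was STOMAGEN, which the study measured by other means. Neither could be measured here. TMM, the receptor-like protein that spaces stomata, had 1.05 and 1.07 CPM in aquatic replicates 2 and 3, against 8.66 and 18.9 CPM in terrestrial replicates 2 and 3, and fell by 3.69 in log2 units (standard error 0.48, adjusted p = 0.0159 from edgeR). SPCH, which starts the lineage, had 8 and 16 counts in the aquatic libraries, against 45 and 97 in the terrestrial libraries, and was 5.95-fold lower (adjusted p = 0.0338). MUTE, which ends the divisions of the meristemoid, had 6 and 14 counts in the aquatic libraries, against 40 and 96 in the terrestrial libraries, and was 6.83-fold lower (adjusted p = 0.0383). Transcripts of both factors were few, yet were counted in both aquatic libraries. ICE1, also called SCREAM, the partner of these factors, had 31.8 and 43.4 CPM in the aquatic libraries, against 98.0 and 115.5 CPM in the terrestrial libraries, and was 2.84-fold lower (adjusted p = 0.0160). ER, the ERECTA receptor kinase, had 183 and 175 CPM in the aquatic libraries, against 310.0 and 364 CPM in the terrestrial libraries, and was 1.88-fold lower (adjusted p = 0.0182).

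POLAR, a protein of asymmetric division in *Arabidopsis* stomatal precursors, was the member that rose, with 11.2 and 7.04 CPM in the aquatic libraries, against 1.73 and 1.24 CPM in the terrestrial libraries (6.11-fold, adjusted p = 0.0165 from edgeR). Its single transcript matched POLAR at 24% identity, the lowest identity in the list. The other 4 members did not pass. YDA, the kinase at the head of the signalling cascade, had 78.6 and 71.3 CPM in the aquatic libraries, against 59.3 and 51.9 CPM in the terrestrial libraries (adjusted p = 0.0829). HDG2, an epidermal homeodomain factor that promotes stomatal differentiation, had 392 and 402 CPM in the aquatic libraries, against 253.7 and 314 CPM in the terrestrial libraries (adjusted p = 0.0813). SDD1, a subtilase that limits stomatal density, had 349 and 356 CPM in the aquatic libraries, against 316 and 308 CPM in the terrestrial libraries (adjusted p = 0.288). These 3 lay slightly above the terrestrial libraries, and MPK6, a kinase at the end of the cascade, slightly below, with 32.7 and 44.2 CPM in the aquatic libraries, against 45.0 and 49.2 CPM in the terrestrial libraries (adjusted p = 0.297).

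Among 6 guard cell genes 3 fell and 1 rose, against 8.93 and 10.8% of all homologs. BLUS1, which opens stomata under blue light in *Arabidopsis*, had 8 and 6 counts in the aquatic libraries, against 80 and 114 in the terrestrial libraries, and was 13.7-fold lower (adjusted p = 0.00950 from edgeR). MYB60, a MYB factor of guard cells, had 4.2 and 5.40 CPM in the aquatic libraries, against 19.1 and 14.8 CPM in the terrestrial libraries, and was 3.53-fold lower (adjusted p = 0.0162). Its transcripts parted: those of 55% and 50% identity had 10 and 9, and 4 and 7 counts in the aquatic libraries, against 128 and 110, and 107 and 88 in the terrestrial libraries, while that of 53% identity had 46 and 70 counts, against 41 and 29, and did not pass. PHOT2, a blue light receptor, had 79.6 and 82.3 CPM in the aquatic libraries, against 153.8 and 119 CPM in the terrestrial libraries, and was 1.69-fold lower (adjusted p = 0.0393). PHOT1, its paralog, had 229 and 271 CPM in the aquatic libraries, against 195 and 152 CPM in the terrestrial libraries (adjusted p = 0.1000). OST1, the kinase of ABA-induced closure, had 134 and 158.5 CPM in the aquatic libraries, against 140.5 and 124.5 CPM in the terrestrial libraries, where the conditions overlap (adjusted p = 0.4996).

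AHA1, a proton pump of the plasma membrane that acts in guard cells and in most other cells, had 7688 and 6790 CPM in the aquatic libraries, against 1847 and 1206 CPM in the terrestrial libraries (4.74-fold higher, adjusted p = 0.0130 from edgeR). In these bulk samples fewer cells of a type and less RNA per cell cannot be told apart. Among the markers of the shoot apex and cell division 6 of 13 also fell, while 3 had log2 fold changes above 0. STM, given with the tissue check, was not among those that fell. The summed level of the 13 was 669.8 and 488 CPM in the aquatic libraries, against 926.7 and 1092 CPM in the terrestrial libraries, with none at 0 in any library. The part of these markers in the fall of the lineage genes was not tested. Without terrestrial replicate 2, 1 stomatal gene (TMM) and 1 guard cell gene (BLUS1) were still called lower and AHA1 higher, and without terrestrial replicate 3 none of the 10 and none of the 6 passed. Without aquatic replicate 2 MUTE and PHOT2 were lost, and without aquatic replicate 3 PHOT2.

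Homologs that pattern the upper and lower side of the leaf changed in a few members. Of 9 tested (22 in the list), 3 fell and 1 rose, against 8.93 and 10.8% of all homologs, and the median log2 fold change over those tested was -0.40. AS1, the MYB factor that keeps meristem genes off in leaves, had 46.7 and 53.4 CPM in aquatic replicates 2 and 3, against 106.6 and 104 CPM in terrestrial replicates 2 and 3, and was 2.11-fold lower (adjusted p = 0.0138 from edgeR). REV, which belongs to the class III HD-ZIP factors of the upper side, had 11.9 and 12.3 CPM in the aquatic libraries, against 23.0 and 20.2 CPM in the terrestrial libraries, and was 1.79-fold lower (adjusted p = 0.0317). CNA, of the same class, had 99.4 and 138 CPM in the aquatic libraries, against 210.3 and 202 CPM in the terrestrial libraries, and was 1.73-fold lower (adjusted p = 0.0482). Factors of the upper side were therefore among those that fell. KAN4, of the KANADI factors, the class of the lower side, was 3.05-fold higher, with 16.4 and 15.8 CPM in the aquatic libraries, against 5.12 and 5.43 CPM in the terrestrial libraries (adjusted p = 0.0125). Both of its transcripts, which the assembly places in 1 gene, rose, at 42 and 41% identity. KAN1, KAN2 and KAN3 had no match, and nor had PHB, PHV and ATHB8 of the HD-ZIP class. KAN4 is thus the only KANADI homolog measured here, and which KANADI gene of *Ranunculus* it holds was not tested. With matches of at least 60% identity 4 polarity genes were tested, of which 0 were higher and 3 lower.

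The auxin response factors of the lower side did not pass. ETT had 8.40 and 5.72 CPM in the aquatic libraries, against 12.1 and 16.3 CPM in the terrestrial libraries (adjusted p = 0.0713 from edgeR). ARF4 had 15.1 and 30.5 CPM in the aquatic libraries, against 32.8 and 27.5 CPM in the terrestrial libraries (adjusted p = 0.453), with aquatic replicate 2 below both terrestrial libraries and aquatic replicate 3 between them. SGS3 and RDR6, which make the small RNAs that restrict these factors, had log2 fold changes of -0.22 (adjusted p = 0.208) and 0.06 (adjusted p = 0.774), although 1 of 2 SGS3 transcripts (log2 fold change -0.997) and 1 of 5 RDR6 transcripts (-1.98) fell. PRS, a WOX factor of the leaf margin, had 22 and 23 counts in the aquatic libraries, against 19 and 20 in the terrestrial libraries (adjusted p = 0.675). YAB5, a YABBY factor, had 6 and 7 counts in the aquatic libraries, against 7 and 3 in the terrestrial libraries, too few to be tested. With the replicate block 1 of the 9 tested was still lower and 1 higher. None of these 9 passed without terrestrial replicate 2 or without terrestrial replicate 3, and CNA was also lost without aquatic replicate 2, without the count filter and with its most abundant transcript alone.

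The markers of the shoot apex and cell division named beside the stomatal genes had a median log2 fold change of -0.88 over the 13 tested. Those that fell, given next, are mostly genes of cell division. The tested transcript of KNAT1, a meristem homeobox gene named after its values were seen, had 334 and 469 counts in the aquatic libraries, against 234 and 176 in the terrestrial libraries. It did not pass (log2 fold change 0.89, adjusted p = 0.0628 from edgeR). CYCD3;1, a D-type cyclin, had 6.93 and 5.53 CPM in the aquatic libraries, against 24.2 and 28.8 CPM in the terrestrial libraries, and was 4.26-fold lower (adjusted p = 0.0101 from edgeR). PLEIADE, a microtubule-associated protein of cell division, was 2.42-fold lower (adjusted p = 0.0152), CDKB2;1, a mitotic kinase, 2.18-fold (adjusted p = 0.0302), and AUR1, an Aurora kinase, 1.84-fold (adjusted p = 0.0455). KNOLLE, a syntaxin that fuses vesicles at the cell plate, had 79.6 and 54.1 CPM in the aquatic libraries, against 125 and 174.8 CPM in the terrestrial libraries, and was 2.24-fold lower (adjusted p = 0.0437). CLV1, a receptor kinase of the meristem centre, had 14.0 and 14.8 CPM in the aquatic libraries, against 28.0 and 29.6 CPM in the terrestrial libraries, and was 2.0-fold lower (adjusted p = 0.0184). No member was called higher by edgeR (1 at an unadjusted p under 0.05), and 1 was by DESeq2 and 0 by limma. With the replicate block 3 members were lower. The count of members lower was 4 without terrestrial replicate 2 and 0 without terrestrial replicate 3, 8 without aquatic replicate 2 and 4 without aquatic replicate 3.

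**Figure D3:**
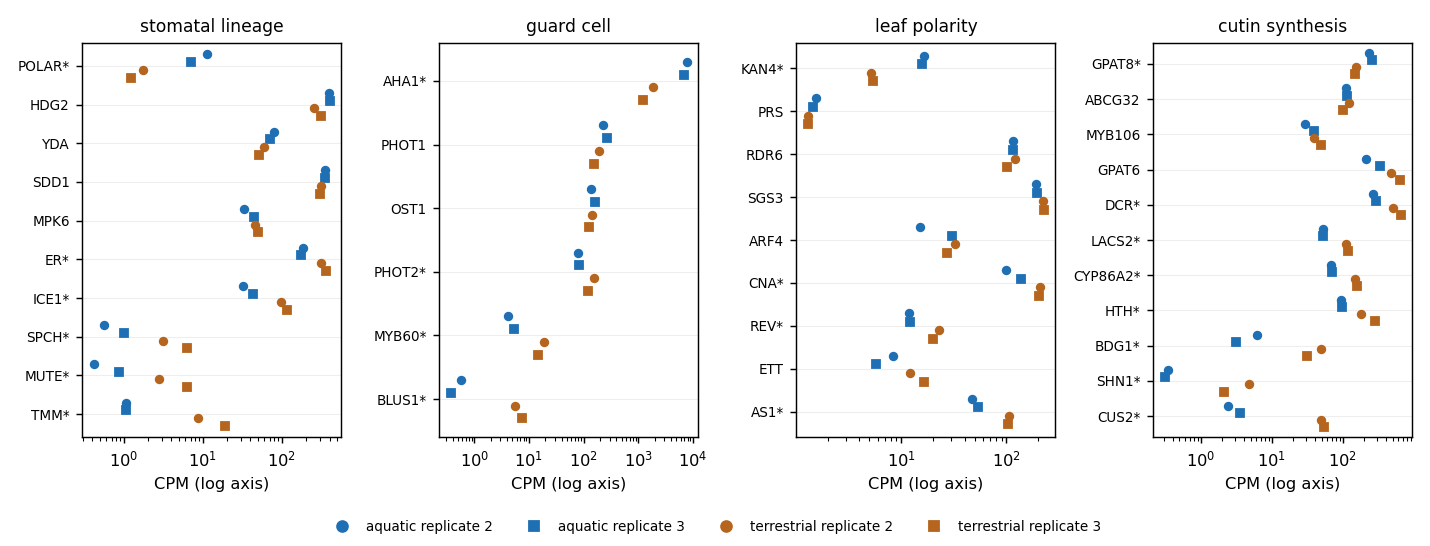
CPM in each library, on a log axis, of the tested homologs in the lists of stomatal lineage, guard cell, leaf polarity and cutin synthesis, ordered by log2 fold change. Blue symbols are the aquatic and brown symbols the terrestrial libraries, and a star marks an adjusted p under 0.05. TMM, MUTE and SPCH lie at the bottom of the first panel, and CUS2 and SHN1 at the bottom of the last.

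Of 11 cutin genes tested (18 in the list), 7 fell in aquatic plants and 1 rose, and the median log2 fold change over those tested was -1.12. CUS2, a cutin synthase in *Arabidopsis*, had 2.38 and 3.58 CPM in aquatic replicates 2 and 3, against 49.1 and 54.9 CPM in terrestrial replicates 2 and 3, and was 17.3-fold lower (log2 standard error 0.25, adjusted p = 0.00688 from edgeR). SHN1, the AP2 factor that switches on cuticle genes, had 5 and 5 counts in the aquatic libraries, against 69 and 32 in the terrestrial libraries, and was 10.1-fold lower (adjusted p = 0.0248). BDG1, a hydrolase of cutin formation, had 6.23 and 3.14 CPM in the aquatic libraries, against 49.0 and 31.5 CPM in the terrestrial libraries, and was 8.60-fold lower (adjusted p = 0.0161). The next members span activation, oxidation and acyl transfer of the monomers, and changed less. LACS2, an acyl-CoA synthetase, had 52.9 and 51.7 CPM in the aquatic libraries, against 109.6 and 117 CPM in the terrestrial libraries, and was 2.17-fold lower (adjusted p = 0.0111). CYP86A2, a fatty acid hydroxylase, was 2.24-fold lower (adjusted p = 0.0101) and DCR, an acyltransferase, 2.09-fold (adjusted p = 0.0217). HTH, an oxidoreductase, was 2.38-fold lower (adjusted p = 0.0314), and like SHN1 is named, outside the 6 of smallest p, to complete the 7.

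GPAT8, a glycerol-3-phosphate acyltransferase, was the cutin gene that rose, with 232 and 259.8 CPM in the aquatic libraries, against 153.2 and 148 CPM in the terrestrial libraries (1.63-fold, adjusted p = 0.0242 from edgeR). With terrestrial replicate 2 left out 4 cutin genes were called lower, and without terrestrial replicate 3 only CUS2 was. Of 13 wax genes 3 rose and 3 fell, against 10.8 and 8.93% of all homologs, around a median of -0.12 in log2 units. LACS1, an acyl-CoA synthetase of wax and cutin, had 114 and 122.5 CPM in the aquatic libraries, against 371 and 396 CPM in the terrestrial libraries, and was 3.25-fold lower (adjusted p = 0.00701). CER4, the reductase that makes wax alcohols, had 134 and 122 CPM in the aquatic libraries, against 634.6 and 475 CPM in the terrestrial libraries, and was 4.32-fold lower (adjusted p = 0.00812). Its 5 transcripts parted. A pair at 50 and 52% identity had 178 and 164, and 196 and 172 counts in the aquatic libraries, against 1 and 0 each in the terrestrial libraries, and rose, while the other 3 fell, among them the most abundant, with 1540 and 1607 counts in the aquatic libraries, against 9057 and 7169 in the terrestrial libraries.

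KCS1, an elongase of very long chain fatty acids, was 2.38-fold lower (adjusted p = 0.0159 from edgeR), while its relative KCS20 was 2.37-fold higher (adjusted p = 0.0140) and CER9, a ubiquitin ligase that limits cuticle formation in *Arabidopsis*, was 1.80-fold higher (adjusted p = 0.0362). ABCG11, the exporter of wax and cutin, was 1.69-fold higher as a sum of 9 transcripts (adjusted p = 0.0183). Of these, 6 rose, all of 50 to 55% identity. The most abundant, of 82% identity, did not, with 1351 and 1698 counts in the aquatic libraries, against 1929 and 2492 in the terrestrial libraries (log2 fold change -0.60, adjusted p = 0.0840). With the most abundant transcript alone, or with matches of at least 60% identity, the homolog had log2 fold changes of -0.57 and -0.55, so the direction of ABCG11 rests on transcripts of low identity. Without terrestrial replicate 2, and likewise without terrestrial replicate 3, only CER4 and LACS1 of the wax list passed, and CER9 was also lost without aquatic replicate 3.

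Of 13 xylem and secondary wall genes tested, 7 fell in aquatic plants and 1 rose (median log2 fold change -1.10), and of 9 lignin monomer enzymes 4 rose and 0 fell (median 1.90). No lignin enzyme was called lower by edgeR (0 at an unadjusted p under 0.05), DESeq2 (0) or limma (0), and 7 were called higher by DESeq2 and 2 by limma. XCP1, the cysteine peptidase that clears the dying vessel, had 20.7 and 28.7 CPM in aquatic replicates 2 and 3, against 67.5 and 98.5 CPM in terrestrial replicates 2 and 3, and was 3.36-fold lower (adjusted p = 0.0191 from edgeR). LAC17, a laccase of lignin polymerisation, had 2.1 and 3.21 CPM in the aquatic libraries, against 11.6 and 16.4 CPM in the terrestrial libraries, and was 5.26-fold lower (adjusted p = 0.0161). IRX6, a COBRA-like protein of the secondary wall, had 13 and 27 counts in the aquatic libraries, against 87 and 136 in the terrestrial libraries, and was 5.66-fold lower (adjusted p = 0.0225). In all 3 the conditions did not overlap, as in 69.7% of all homologs tested.

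LAC11, another laccase, was 2.78-fold lower (adjusted p = 0.0304 from edgeR) and CESA4, a cellulose synthase of the secondary wall, 2.14-fold lower (adjusted p = 0.0368). The other 2 that fell, VND4, a NAC factor of vessel formation (3.22-fold, adjusted p = 0.0452), and IRX9, a glycosyltransferase of xylan (2.96-fold, adjusted p = 0.0421), are named to complete the 7, and IRX9 had only 11 and 10 counts in the aquatic libraries, against 26 and 36 in the terrestrial libraries, and did not pass in DESeq2. VND1 and VND7, relatives of VND4 named after their values were seen, had log2 fold changes of -0.93 (adjusted p = 0.118) and -0.027 (adjusted p = 0.975), and VND7 had 8 and 13 counts in the aquatic libraries, against 9 and 12 in the terrestrial libraries. KNAT7, a homeobox factor that represses the secondary wall in *Arabidopsis*, was the gene that rose, with 19 and 15.2 CPM in the aquatic libraries, against 6.44 and 5.95 CPM in the terrestrial libraries (2.76-fold, adjusted p = 0.0170). PXY, the receptor kinase of the cambium, was 1.80-fold lower (adjusted p = 0.0183), the sole member of 6 in the vascular patterning list to pass, and was lost without either terrestrial library. Of the xylem list only XCP1 passed without terrestrial replicate 2, and without terrestrial replicate 3 none did. Without aquatic replicate 2, 4 fell, CESA4, VND4 and IRX9 being lost.

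CCR1, a cinnamoyl-CoA reductase, had 224 and 127 CPM in the aquatic libraries, against 27.1 and 30.8 CPM in the terrestrial libraries, and was 6.07-fold higher (log2 standard error 0.31, adjusted p = 0.0140 from edgeR). F5H, the hydroxylase of syringyl lignin, had 362 and 204 CPM in the aquatic libraries, against 71.5 and 41.9 CPM in the terrestrial libraries, and was 5.0-fold higher (adjusted p = 0.0242), with its transcripts of 66 and 43% identity rising and that of 39% not passing. CCoAOMT1 and COMT1, the methyltransferases, were 3.84-fold (adjusted p = 0.0415) and 3.74-fold higher (adjusted p = 0.0441), and did not pass in limma. In each of these 4, aquatic replicate 2 was above aquatic replicate 3, and both were above the terrestrial libraries. The same order held in 4CL1, which activates the acids and is named after its values were seen, with 183 and 50.5 CPM in the aquatic libraries, against 20.5 and 19 CPM in the terrestrial libraries, but it did not pass (adjusted p = 0.0528). The transcripts of PAL1, the entry enzyme, also named after its values were seen, parted, with 1 higher (log2 fold change 2.15), 1 lower (-0.85) and 2 that did not pass, and the homolog did not pass (adjusted p = 0.358). No lignin enzyme passed without terrestrial replicate 2 or without terrestrial replicate 3, 5 were higher without aquatic replicate 2 and 6 without aquatic replicate 3.

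Of 5 flavonoid genes tested, 3 were lower in aquatic plants and 0 higher by edgeR (1 higher at an unadjusted p under 0.05, 1 in DESeq2 and 0 in limma). CHI, chalcone isomerase, had 4.2 and 2.07 CPM in the aquatic libraries, against 95.1 and 149 CPM in the terrestrial libraries, and was 39.1-fold lower (log2 standard error 0.43, adjusted p = 0.00788). FLS1, flavonol synthase, had 27.0 and 36.8 CPM in the aquatic libraries, against 246 and 452 CPM in the terrestrial libraries, and was 11.0-fold lower (adjusted p = 0.0114). MYB12, the factor that switches on flavonol synthesis in *Arabidopsis*, had 2.03 and 2.95 CPM in the aquatic libraries, against 38.2 and 65.6 CPM in the terrestrial libraries, and was 20.7-fold lower (adjusted p = 0.00802). All 3 also passed without any 1 of the 4 libraries. The laccase TT10, named after its values were seen, went the other way, with 249.5 and 6.85 CPM in the aquatic libraries, against 0.139 and 0.719 CPM in the terrestrial libraries, and did not pass (adjusted p = 0.0638). Its aquatic libraries lay far apart. TT7, the flavonoid hydroxylase, likewise named, had 400 and 286 CPM in the aquatic libraries, against 245 and 251 CPM in the terrestrial libraries (adjusted p = 0.144). Of its 9 transcripts 3 rose and 4 fell, among them the 1 of highest identity, 60%, with 159 and 83 counts in the aquatic libraries, against 2045 and 2718 in the terrestrial libraries. Without aquatic replicate 2, 1 flavonoid gene was called higher, and 2 were without aquatic replicate 3.

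**Figure D4:**
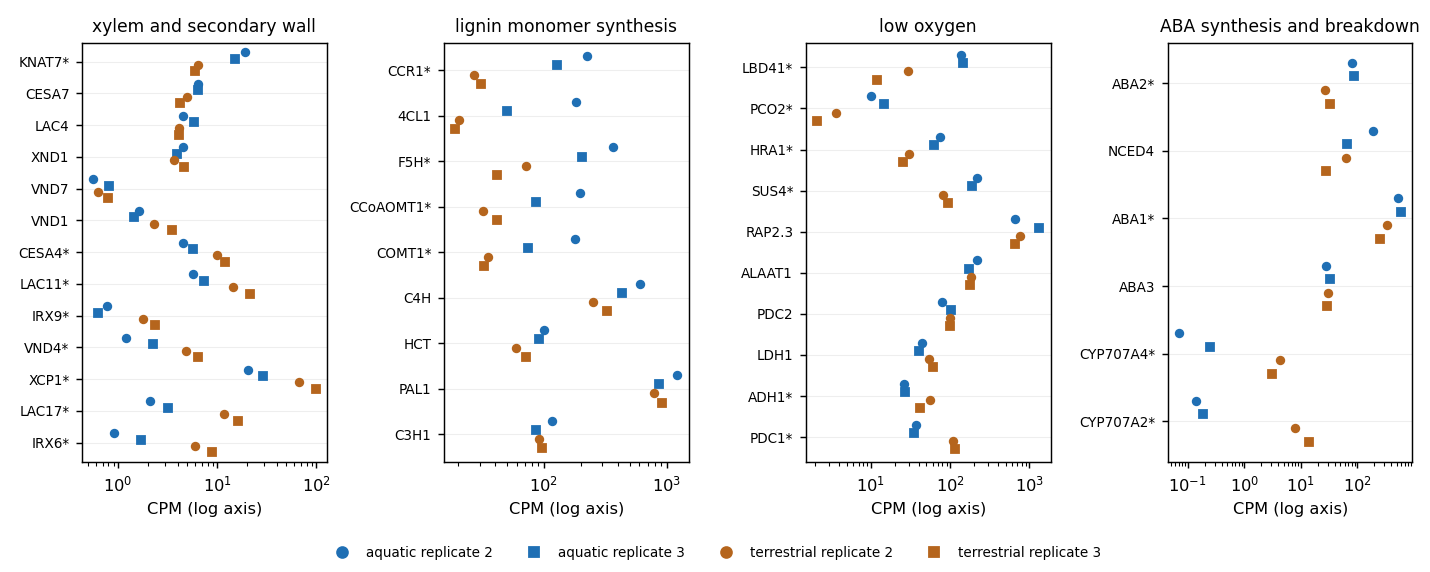
CPM in each library, on a log axis, of the tested homologs in the lists of xylem and secondary wall, lignin monomer synthesis, low oxygen, and ABA synthesis and breakdown, ordered by log2 fold change. Blue symbols are the aquatic and brown symbols the terrestrial libraries, and a star marks an adjusted p under 0.05. Most xylem genes lie left in aquatic plants and most lignin enzymes right, and CYP707A2 and CYP707A4 are the furthest apart in the last panel.

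Genes that answer low oxygen changed in both directions. Of 10 tested, 4 rose and 2 fell, and the median log2 fold change over those tested was 0.29. With matches of at least 60% identity 6 were tested, of which 1 was higher and 2 lower, with a median of -0.265. LBD41, PCO2 and HRA1, given next, matched at 42 to 56% identity. LBD41, a factor induced by low oxygen in *Arabidopsis*, had 137 and 145 CPM in aquatic replicates 2 and 3, against 29.6 and 12.0 CPM in terrestrial replicates 2 and 3, and was 6.79-fold higher (adjusted p = 0.0219 from edgeR). PCO2, a plant cysteine oxidase that acts as an oxygen sensor, had 9.94 and 14.7 CPM in the aquatic libraries, against 3.67 and 2.09 CPM in the terrestrial libraries, and was 4.28-fold higher (adjusted p = 0.0266). HRA1, which restrains the low oxygen response, had 74.6 and 62.0 CPM in the aquatic libraries, against 30.1 and 25.3 CPM in the terrestrial libraries, and was 2.47-fold higher (adjusted p = 0.0151). Of its 5 transcripts 2 rose and 3 did not pass. SUS4, a sucrose synthase, had 215 and 188.5 CPM in the aquatic libraries, against 81.0 and 93.5 CPM in the terrestrial libraries, and was 2.31-fold higher (adjusted p = 0.0138). These 4 are a regulator, a sensor, a brake and an entry point of sugar breakdown.

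The enzymes of ethanol fermentation fell or did not pass. PDC1, pyruvate decarboxylase, had 37.1 and 35.3 CPM in the aquatic libraries, against 108.0 and 114 CPM in the terrestrial libraries, and was 3.06-fold lower (log2 standard error 0.12, adjusted p = 0.00708 from edgeR). ADH1, alcohol dehydrogenase, had 26.3 and 27.3 CPM in the aquatic libraries, against 55.0 and 41.9 CPM in the terrestrial libraries, and was 1.81-fold lower (adjusted p = 0.0348). Both transcripts of each of these genes fell. PDC2 had 79.5 and 103 CPM in the aquatic libraries, against 99.1 and 99.4 CPM in the terrestrial libraries (adjusted p = 0.611). LDH1, lactate dehydrogenase, had 43.8 and 40.8 CPM in the aquatic libraries, against 53.5 and 60.7 CPM in the terrestrial libraries (adjusted p = 0.0775), and 1 of its 2 transcripts fell. RAP2.3, an ERF factor of the oxygen-sensing group, had 659 and 1336 CPM in the aquatic libraries, against 764 and 665.5 CPM in the terrestrial libraries (adjusted p = 0.363), and ALAAT1, alanine aminotransferase, 219 and 172 CPM, against 186 and 178 CPM (adjusted p = 0.657). In PDC2, RAP2.3 and ALAAT1 the conditions overlap. PDC1 and LBD41 passed without any 1 of the 4 libraries, and the other 4 calls were lost without terrestrial replicate 2 and without terrestrial replicate 3.

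Of the ethylene genes, 2 of 10 tested rose and 0 fell (0 lower at an unadjusted p under 0.05 in edgeR, 0 in DESeq2 and 0 in limma), against 10.8 and 8.93% of all homologs. EIN3, the factor that carries the ethylene signal, had 811 and 784 CPM in the aquatic libraries, against 489.6 and 465 CPM in the terrestrial libraries, and was 1.67-fold higher (adjusted p = 0.0209 from edgeR). EBF1, the F-box protein that degrades EIN3 and is itself an EIN3 target in *Arabidopsis*, had 487 and 523 CPM in the aquatic libraries, against 289.6 and 280.1 CPM in the terrestrial libraries, and was 1.77-fold higher (adjusted p = 0.0168). Both calls were lost without either terrestrial library, while 3 ethylene genes were higher and 2 lower without aquatic replicate 2, and with the most abundant transcript alone 2 were higher and 1 lower. Upstream of them, the receptor EIN4 had 394 and 484 CPM in the aquatic libraries, against 282 and 196 CPM in the terrestrial libraries (adjusted p = 0.0562), and the receptor regulator RTE1 13.9 and 19.3 CPM, against 16.5 and 10.5 CPM (adjusted p = 0.499). CTR1, the kinase that holds the pathway off, had 76.0 and 72.9 CPM in the aquatic libraries, against 64.9 and 60.4 CPM in the terrestrial libraries (adjusted p = 0.183), and EIN2, which it acts on, 135 and 130.1 CPM, against 135 and 124 CPM (adjusted p = 0.827).

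The genes of ethylene synthesis did not pass and varied within conditions. ACS7, an ACC synthase, had 13.7 and 9.30 CPM in the aquatic libraries, against 10.3 and 1.63 CPM in the terrestrial libraries (adjusted p = 0.438 from edgeR), and ACS6 50.7 and 30.9 CPM, against 59.0 and 46.6 CPM (adjusted p = 0.368). ACO1, an ACC oxidase, had 9.03 and 6.28 CPM in the aquatic libraries, against 18.7 and 6.6 CPM in the terrestrial libraries (adjusted p = 0.369). The response factor ERF1 had 10.5 and 0.880 CPM in the aquatic libraries, against 11.2 and 15.8 CPM in the terrestrial libraries (adjusted p = 0.404), and of its 2 transcripts 1 fell, with 25 and 6 counts in the aquatic libraries, against 160 and 152 in the terrestrial libraries (adjusted p = 0.0211). In ACS7, ACO1 and ERF1 1 library lay far from its partner, and their fitted changes are accordingly imprecise. ACO5, a further ACC oxidase, had 1 and 2 counts in the aquatic libraries, against 3 and 0 in the terrestrial libraries, and was not tested.

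In ABA metabolism, 2 synthesis enzymes rose and 2 breakdown enzymes fell, of 6 genes tested. CYP707A2, which hydroxylates ABA for breakdown, had 2 and 3 counts in aquatic replicates 2 and 3, against 117 and 215 in terrestrial replicates 2 and 3, and fell by 6.0 in log2 units (standard error 0.49, adjusted p = 0.00788 from edgeR). CYP707A4, of the same family, had 1 and 4 counts in the aquatic libraries, against 63 and 48 in the terrestrial libraries, and fell by 4.44 (standard error 0.55, adjusted p = 0.0147). At such counts the fitted values are uncertain, but both genes were near 0 in both aquatic libraries. ABA1, zeaxanthin epoxidase, had 519 and 606 CPM in the aquatic libraries, against 341 and 249 CPM in the terrestrial libraries, and was 1.91-fold higher (adjusted p = 0.0372). ABA2, the dehydrogenase that makes ABA aldehyde, had 82.1 and 89.4 CPM in the aquatic libraries, against 27.4 and 33.5 CPM in the terrestrial libraries, and was 2.82-fold higher (adjusted p = 0.0104). Its transcript of highest identity, 67%, did not pass, with 211 and 297 counts in the aquatic libraries, against 165 and 213 in the terrestrial libraries (adjusted p = 0.383), while 3 of 48 to 50% identity rose, so that with matches of at least 60% identity ABA2 no longer passed.

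NCED4, a carotenoid cleavage dioxygenase, had 189.7 and 65.0 CPM in the aquatic libraries, against 63.6 and 28.6 CPM in the terrestrial libraries (adjusted p = 0.163 from edgeR). ABA3, the sulfurase of the molybdenum cofactor, had 28.1 and 33.1 CPM in the aquatic libraries, against 31.1 and 28.8 CPM in the terrestrial libraries, with conditions that overlap (adjusted p = 0.905). NCED3, the dioxygenase induced by drought in *Arabidopsis*, had 7 and 0 counts in the aquatic libraries, against 27 and 2 in the terrestrial libraries, and was not tested. CYP707A2 passed without any 1 of the 4 libraries. Without terrestrial replicate 2 ABA2 was also still higher and CYP707A4 lost, without terrestrial replicate 3 only CYP707A2 passed, and ABA1 was also lost without aquatic replicate 3. Among 6 genes of ABA signalling 1 rose and 0 fell (1 lower at an unadjusted p under 0.05 in edgeR, 0 in DESeq2 and 0 in limma), against 10.8 and 8.93% of all homologs. The member that rose was PYL4, an ABA receptor, with 231 and 330 CPM in the aquatic libraries, against 99.4 and 69.1 CPM in the terrestrial libraries (3.33-fold, adjusted p = 0.0202), a call lost without either terrestrial library, while 2 members were higher without aquatic replicate 2.

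Of 9 gibberellin genes 2 rose and 1 fell, counts that lie close to the 10.8 and 8.93% of all homologs. GAI, a DELLA repressor of gibberellin responses, had 27.7 and 29.7 CPM in the aquatic libraries, against 89.9 and 94.0 CPM in the terrestrial libraries, and was 3.20-fold lower (log2 standard error 0.12, adjusted p = 0.00701 from edgeR), also without any 1 of the 4 libraries. GID1C, a gibberellin receptor, had 129.6 and 185 CPM in the aquatic libraries, against 68.5 and 76.6 CPM in the terrestrial libraries, and was 2.17-fold higher (adjusted p = 0.0290). GA20OX2, an oxidase of gibberellin synthesis, was 3.48-fold higher as a sum (adjusted p = 0.0281). Its transcript of 54% identity had 501 and 681 counts in the aquatic libraries, against 150 and 48 in the terrestrial libraries, while that of 71% identity had 30 and 60, against 75 and 82, and did not pass. With matches of at least 60% identity the fitted change of the homolog was -0.83 in log2 units (adjusted p = 0.140). With aquatic replicate 3 left out 2 gibberellin genes were lower. GID1C was lost without either terrestrial library and GA20OX2 without terrestrial replicate 3.

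Of 10 auxin genes 2 rose and 2 fell, against the same 10.8 and 8.93%. The synthesis enzymes parted by step. TAR2, which makes indole pyruvate, had 73.2 and 56.3 CPM in the aquatic libraries, against 24.2 and 16.1 CPM in the terrestrial libraries, and was 3.21-fold higher (adjusted p = 0.0197 from edgeR). YUC4, which uses it, had 30 and 27 counts in the aquatic libraries, against 83 and 99 in the terrestrial libraries, and was 3.22-fold lower (adjusted p = 0.0197), and YUC9 of the same family is given above. TAR2 did not pass with matches of at least 60% identity. GH3.1, an enzyme that conjugates auxin, had 22.8 and 12.8 CPM in the aquatic libraries, against 3.6 and 2.03 CPM in the terrestrial libraries, and was 6.33-fold higher (adjusted p = 0.0226). None of the 10 passed without terrestrial replicate 3, and without terrestrial replicate 2 TAR2 and YUC9 did. Without aquatic replicate 3 the counts were 3 higher and 5 lower, and without aquatic replicate 2 they were 2 and 3.

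No photosynthesis gene passed as a homolog. Of 19 tested, 0 were higher and 0 lower by edgeR (1 and 2 at an unadjusted p under 0.05), against 1 and 2 in DESeq2 and 0 and 2 in limma, and the median log2 fold change was 0.10. Antenna proteins such as LHCB3 overlapped between conditions, with 11480 and 13780 CPM in the aquatic libraries, against 11870 and 9971 CPM in the terrestrial libraries (adjusted p = 0.456). RBCS1A, the small subunit of Rubisco, named after its values were seen, was the furthest from 0, with 599 and 1046 CPM in the aquatic libraries, against 2569 and 1729 CPM in the terrestrial libraries (log2 fold change -1.39, standard error 0.35, adjusted p = 0.0534). In the test of transcripts it was lower (log2 fold change -1.43, adjusted p = 0.0400 from edgeR). RCA, likewise named, had transcripts called lower there (-1.255 and -1.264, adjusted p = 0.0158 and 0.0147), while its other transcripts did not pass. Outside the light reactions, 1 of 6 genes of inorganic carbon and photorespiration fell and 0 rose (0 higher at an unadjusted p under 0.05 in edgeR, 0 in DESeq2 and 0 in limma). It was BCA2, a carbonic anhydrase, which converts carbon dioxide and bicarbonate, with 364.5 and 490.2 CPM in the aquatic libraries, against 4955 and 2532 CPM in the terrestrial libraries (8.76-fold lower, log2 standard error 0.39, adjusted p = 0.0151). This fall passed without any 1 of the 4 libraries.

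Among 16 genes of wall loosening and synthesis 3 rose and 1 fell, with 5 and 3 without aquatic replicate 2 and 3 and 4 without aquatic replicate 3. Beside KOR2 and PME17, XTH30, a xyloglucan endotransglucosylase, was 4.59-fold higher, with 242 and 336.5 CPM in the aquatic libraries, against 72.9 and 53.1 CPM in the terrestrial libraries (adjusted p = 0.0128 from edgeR). EXPA8, an expansin named after its values were seen, did not pass as a sum. A transcript of it rose (log2 fold change 5.14, adjusted p = 0.0237), with 809 and 2973 counts in the aquatic libraries, against 85 and 13 in the terrestrial libraries, and the others did not pass. XTH9, of the family of XTH30, was 3.87-fold lower, with 160.0 and 226 CPM in the aquatic libraries, against 462 and 1029 CPM in the terrestrial libraries (adjusted p = 0.0413), a call lost without aquatic replicate 2 and without terrestrial replicate 3. Without terrestrial replicate 3 KOR2 alone passed. Of 11 aquaporins tested, 2 rose and 2 fell (DESeq2 called 4 and 3, limma 3 and 1). These counts and those of the wall genes stand beside 10.8% higher and 8.93% lower over all homologs. NIP5;1, a boric acid channel in *Arabidopsis*, had 120.5 and 129.9 CPM in the aquatic libraries, against 38.6 and 30.3 CPM in the terrestrial libraries, and was 3.63-fold higher (adjusted p = 0.00817). SIP1;1, a channel of the endoplasmic reticulum, was 1.52-fold higher (adjusted p = 0.0369), with library size scaling no longer passing. PIP1;5, a water channel of the plasma membrane, was 1.81-fold lower (adjusted p = 0.0346). A more abundant transcript of the same assembled gene, matched to PIP1;1, did not pass (log2 fold change 0.36). It had 27784 and 32624 counts in the aquatic libraries, against 22642 and 22174 in the terrestrial libraries. TIP1;3, a vacuolar channel, had 7 and 5 counts in the aquatic libraries, against 153 and 34 in the terrestrial libraries (adjusted p = 0.0478). NIP5;1 alone passed without terrestrial replicate 2 and without terrestrial replicate 3 TIP1;3 alone, and without aquatic replicate 2 PIP1;5 and TIP1;3 were lost and without aquatic replicate 3 SIP1;1 and TIP1;3.

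Of 9 defence genes tested, 4 rose in aquatic plants and 0 fell, and the median log2 fold change over those tested was 1.71, and none was lower at an unadjusted p under 0.05 in edgeR (0), in DESeq2 (0) or in limma (0). CHIV, a class IV chitinase, had 40.7 and 32.6 CPM in the aquatic libraries, against 5.40 and 5.03 CPM in the terrestrial libraries, and was 7.02-fold higher (log2 standard error 0.19, adjusted p = 0.00701 from edgeR), with its 3 transcripts all rising. TGA1, a bZIP factor that acts in salicylic acid signalling, had 20.4 and 27.7 CPM in the aquatic libraries, against 7.82 and 7.78 CPM in the terrestrial libraries, and was 3.08-fold higher (adjusted p = 0.0160). MLO2, a relative of MLO12, had 40.7 and 41.7 CPM in the aquatic libraries, against 16.1 and 12.1 CPM in the terrestrial libraries, and was 2.92-fold higher (adjusted p = 0.0148). CERK1, the receptor kinase for chitin, had 99.9 and 101.7 CPM in the aquatic libraries, against 62.0 and 61.9 CPM in the terrestrial libraries, and was 1.63-fold higher (adjusted p = 0.0209). In these 4 the aquatic libraries were alike.

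Of the 5 members that did not pass, 4 were higher in aquatic replicate 2 than in aquatic replicate 3, and all 5 are named after their values were seen. PR1, the marker of salicylic acid defence, had 79.5 and 0.189 CPM in aquatic replicates 2 and 3, against 0.554 and 1.44 CPM in terrestrial replicates 2 and 3 (adjusted p = 0.164 from edgeR). RBOHD, the oxidase of the respiratory burst, had 459 and 145 CPM in the aquatic libraries, against 87.5 and 97.3 CPM in the terrestrial libraries (adjusted p = 0.0919). YLS9 had 153 and 28.9 CPM in the aquatic libraries, against 22.6 and 15.2 CPM in the terrestrial libraries (adjusted p = 0.114). PR4, which binds chitin, had 172 and 102 CPM in the aquatic libraries, against 13.9 and 68.3 CPM in the terrestrial libraries (adjusted p = 0.169). FLS2, the receptor kinase for flagellin, had the opposite order, with 35.8 and 43.9 CPM in the aquatic libraries, against 30.9 and 19.6 CPM in the terrestrial libraries (adjusted p = 0.140). The fungal share of the counts was also highest in aquatic replicate 2, as given with the library totals, and its part in the levels of defence genes was not tested. Without aquatic replicate 2, 5 defence genes were higher and the log2 fold change of PR1 was -2.36, and without aquatic replicate 3, 7 were higher. CHIV and MLO2 passed without terrestrial replicate 2, and CHIV alone without terrestrial replicate 3.

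**Figure D5:**
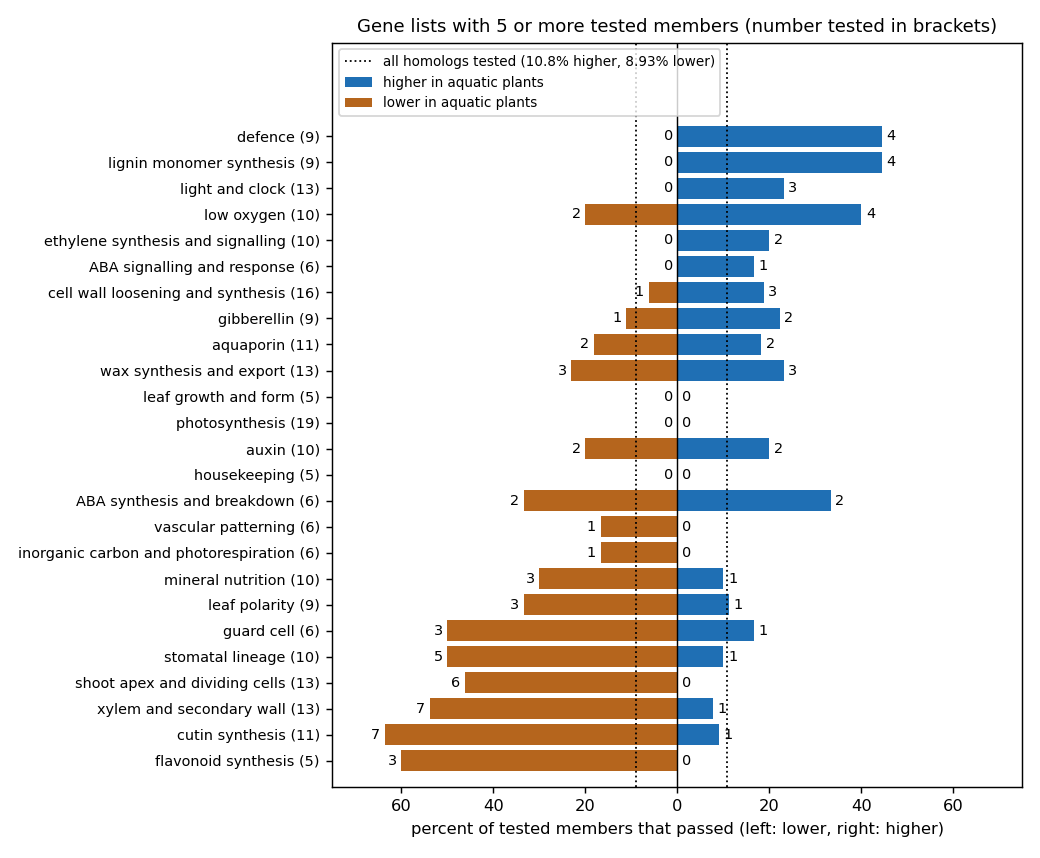
Percent of the tested members of each gene list that passed, higher in aquatic plants to the right in blue and lower to the left in brown, with the number of members at each bar. Dotted lines mark all homologs tested, 10.8% higher and 8.93% lower. Cutin, flavonoid, xylem and stomatal lists lean left, with 7 of 11, 3 of 5, 7 of 13 and 5 of 10 members lower, and defence and lignin lists lean right, with 4 of 9 higher in each. The lists were chosen with earlier results of these data known, so their distance from the dotted lines is not an independent test.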

How the data were processed

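Libraries were grouped by the labels: 2 aquatic and 2 terrestrial libraries of 11 days. The authors used Trinity (de novo assembly), TopHat (mapping) and Cufflinks (FPKM), whose versions are not given in the sources used here. The deposited expected counts estimate how many fragments each transcript gave, and were whole numbers in every library. The deposited TPM values were used only for sums over lists, and the deposited FPKM values precede the authors' quantile normalization. The authors' annotation gives the best protein match with the percent of identical residues. Its 6 columns of FPKM per library, and the authors' tables of FPKM sums and log2 ratios for leaf GO terms, were not used here. In 151 annotation rows the match is removed, and 45 list several *Arabidopsis* loci, of which the first was kept. The total count per library was 25345718 to 30523642.

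Transcripts whose best match is from a fungal genus were dropped and counts summed per *Arabidopsis* locus. edgeR 4.0.16 (quasi-likelihood test, TMM, filterByExpr with a minimum count of 10) in R 4.3.3 compared the conditions, and p-values were adjusted by Benjamini-Hochberg over all features tested, with 0.05 as threshold. Standard errors were obtained by dividing the size of the log2 fold change by the root of the F statistic, and are too small where a condition is near 0. Counting intervals are exact binomial ones at 95%. The fits were also run on simulated counts with known changes, and the outcome is not given here. Alternatives used DESeq2 1.42.0 and limma 3.58.1 (FPKM of at least 1, pseudocount of 1), other scalings, filters and matches, and left out each library. Named are the 15 largest increases and decreases with 50 counts or more in both libraries of the higher side, up to 6 members of each of 30 lists that passed, and all members of 6 lists, save 1 item that is not reported here. The members and lists were chosen with earlier results of these data known. Of 524 list genes, 246 were tested. Sequences of the transcripts were not used here.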

Additional observations from a re-analysis of the deposited data

Results flagged for a closer look

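A signal outside the comparison stood out. Transcripts whose best match is a fungal protein, dropped from every test, held 0.586% of the counts in aquatic replicate 2, above the 0.138 and 0.151% of terrestrial replicates 2 and 3, while aquatic replicate 3 held 0.146%. In aquatic replicate 2, 23028 transcripts were counted in no other of the 4 libraries, 1555 of them with a fungal match and 63 with an *Arabidopsis* match, and together they held 0.874% of its counts. Where these transcripts came from was not tested.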

How the results depend on the processing

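With 2 libraries per condition the number of calls rests on how alike the terrestrial libraries are, and calls at low counts are the least certain. DESeq2 gave 1242 and 948 homologs and 4644 and 2899 transcripts. Over fits without 1 library, homologs higher ranged from 95 to 1022 and lower from 62 to 869, and transcripts higher from 933 to 8246 and lower from 535 to 5036. Matches of at least 60% identity left 4676 homologs, with 546 higher and 518 lower. Without a filter on low counts, where 187362 transcripts were tested, 499 were higher and 329 lower, and with limma 2259 were higher, against 2145 lower. The deviations of libraries with the same replicate number correlated at -0.0908, and the crossed ones at 0.0908. With 2 libraries per condition 1 value fixes the other, so this cannot show whether libraries of the same number were grown or handled together. With the replicate block 689 homologs were higher and 490 lower, and 4561 and 2832 transcripts. The other settings stayed within 1.5 times the counts given. The sign changed for ABCG11 (-0.57 with the most abundant transcript, -0.55 at 60% identity), GA20OX2 (-0.83 at 60% identity), NCED4 (-0.12 at 60% identity), SGS3 (0.053 with the most abundant transcript), RDR6 (-0.050 in limma, -0.037 with library size), EIN2 (-0.056 in limma, -0.059 with library size), ALAAT1 (-0.063 in limma) and ABA3 (-0.0041 in limma, -0.070 with library size and -0.079 with the most abundant transcript). Without 1 library PR1 ranged from -2.36 to 6.29, ARF4 from -0.99 to 0.019, RDR6 from -0.078 to 0.20, PDC2 from -0.32 to 0.053, RAP2.3 from -0.12 to 0.90, ALAAT1 from -0.082 to 0.27, ACO1 from -1.30 to 0.21, EIN2 from -0.032 to 0.10 and ABA3 from -0.10 to 0.14. Of these only ABCG11 and GA20OX2 had passed. Of 116 named homologs that passed, 59 calls were lost without terrestrial replicate 2, 84 without terrestrial replicate 3, 10 and 8 without aquatic replicates 2 and 3, and 14 with the replicate block. Unless the construction shows it, the cause was not tested.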

Other observations

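Clock and light genes, minerals and stress proteins were measured as well. Of 13 light and clock genes, 3 rose in aquatic plants and 0 fell (2 lower at an unadjusted p under 0.05 in edgeR, 1 in DESeq2 and 0 in limma), against 10.8 and 8.93% of all homologs. LHY and CCA1, the morning factors of the clock, were 2.23-fold (adjusted p = 0.0216 from edgeR) and 2.09-fold higher (adjusted p = 0.0211), and all 5 LHY transcripts rose. The assembly places the tested transcripts of LHY and CCA1 in 1 gene, matched at 35 to 38% identity. The calls of LHY and CCA1 may therefore come from the same *Ranunculus* gene and are not separate evidence. LHY had 1117 and 1067 CPM in aquatic replicates 2 and 3, against 564 and 417 CPM in terrestrial replicates 2 and 3. COP1, the ubiquitin ligase that represses light responses, was 1.61-fold higher (adjusted p = 0.0301). The evening gene TOC1, named after its values were seen, had 42.4 and 39.7 CPM in the aquatic libraries, against 33.3 and 31.8 CPM in the terrestrial libraries (adjusted p = 0.121). Without terrestrial replicate 2 only LHY passed and without terrestrial replicate 3 none did. No source used here gives the hour of harvest, and its part was not tested.

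Among 10 genes of mineral nutrition 3 fell, CAX3 and IRT1 among them, and 1 rose, against 8.93 and 10.8% of all homologs. HAK5, the high-affinity potassium transporter, had 134 and 127 CPM in the aquatic libraries, against 9.42 and 6.28 CPM in the terrestrial libraries, and was 16.6-fold higher (log2 standard error 0.23, adjusted p = 0.00681 from edgeR), also without any 1 of the 4 libraries. GLN1;1, a cytosolic glutamine synthetase, was 2.75-fold lower (adjusted p = 0.0159), a call lost without either terrestrial library. HSP101, a heat shock chaperone, had 9.17 and 10.3 CPM in the aquatic libraries, against 42.1 and 36.9 CPM in the terrestrial libraries, and was 4.05-fold lower (adjusted p = 0.00788), while the other 2 tested heat shock genes did not pass. COI1, the jasmonate receptor, was 2.17-fold higher (adjusted p = 0.0131), also lost without either terrestrial library. Of 5 genes of leaf growth and form 0 passed in edgeR (1 lower at an unadjusted p under 0.05, 1 lower in DESeq2 and 1 in limma), of 2 senescence genes 0 (2 unadjusted, 0 in DESeq2 and 0 in limma) and of 5 housekeeping genes 0 (2 unadjusted, 2 in DESeq2 and 0 in limma). A transcript of GRF3, a leaf growth gene named after its values were seen, was lower (log2 fold change -1.63, adjusted p = 0.00926 from edgeR), while another of it did not pass.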
